A study of Homo sapiens with 15 samples.

Results

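Day 70 retinal organoids (D70-ROs) were compared with the human induced pluripotent stem cells (hiPSCs) they were grown from. The comparison rests on 6 of the 15 RNA-seq libraries of the study, chosen by the names of their samples: 3 of hiPSCs and 3 of D70-ROs. Every library came from BC1-GFP, an established hiPSC line, so all groups share 1 genetic background, given as WT, and 1 line. The hiPSCs were undifferentiated cells grown on Matrigel in mTeSR1. The D70-RO libraries hold the neural retina (NR) layers cut from organoids 70 days after induction, which had passed through embryoid bodies, neural induction medium, and later a medium with 10% fetal bovine serum. According to the sample descriptions 5 ROs were pooled in each of 3 independent experiments, whereas the description of the data set gives 3 to 5 ROs and 2 experiments. If the lower number holds, the 3 libraries of a group are not all independent, and the p-values below then measure only the spread between these libraries. The labels name no preparation or sequencing batch, so batch and stage cannot be told apart.

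Pluripotent cells are held in an undifferentiated state by a small set of transcription factors, chiefly OCT4 (encoded by POU5F1), SOX2 and NANOG, which bind together at many genes and at their own promoters. When the neural plate forms, an eye field is set apart in its front part by the factors RAX, PAX6, SIX3, SIX6 and LHX2, and its cells become retinal progenitor cells (RPCs). RPCs divide and give rise to ganglion cells, cone photoreceptors, horizontal and amacrine cells early, and to rods, bipolar cells and Müller glia late. RNA from a whole NR layer is a mixture of such cells, and fewer cells of a type cannot be told apart from less RNA per cell.

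The data are poly(A) RNA-seq values for 19684 genes. Each gene has an expected count, which is the number of reads that RSEM assigned to it, and an FPKM value, which is that number scaled for transcript length and mapped reads. Levels below are FPKM with the SD over 3 libraries. Counts summed to between 18934071 and 20398755 per hiPSC library and between 11349600 and 19722949 per D70-RO library. Replicate 2 of the D70-ROs was the shallowest, and it also stood apart from the others in log2(FPKM + 1), with Pearson correlations of 0.990 and 0.988 across genes against 0.996 between replicates 1 and 3, while the hiPSC libraries correlated at 0.993 to 0.996 with each other. Genes with at least 1 FPKM in at least 3 of the 6 libraries were tested, 12954 in all. A gene that is high in only 1 group passes through that group, so the counts of genes tested in a list are not counts of all its members. Fold changes are log2 values from edgeR with the SE beside some of them. A differentially expressed gene (DEG) changed at least 2-fold and had an adjusted p below 0.05, by the quasi-likelihood test and the adjustment of Benjamini and Hochberg.

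By this rule 5639 of the 12954 genes tested, 43.5%, were DEGs, while 75.2% met the limit on the adjusted p alone. Of all genes tested, 2910 (22.5%) were higher and 2729 (21.1%) lower in D70-ROs, and the median log2 fold change was 0.02. The libraries of the groups did not overlap in 9774 genes, or 75.5%, and in 43.0% of genes the call came with such a gap. These shares are the background against which the gene lists below are read. The falls reached further than the rises. A fall of at least 256-fold was found in 82 genes and a rise of that size in 29, whereas 1253 genes rose and 1239 fell at least 4-fold. A total of 10702 genes stood at 1 FPKM or more in every one of the 6 libraries. In contrast, 132 genes had at least 1 FPKM in the 3 hiPSC libraries and under 0.1 FPKM in the 3 D70-RO libraries, and 93 genes showed the opposite pattern.

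**Figure D1:**
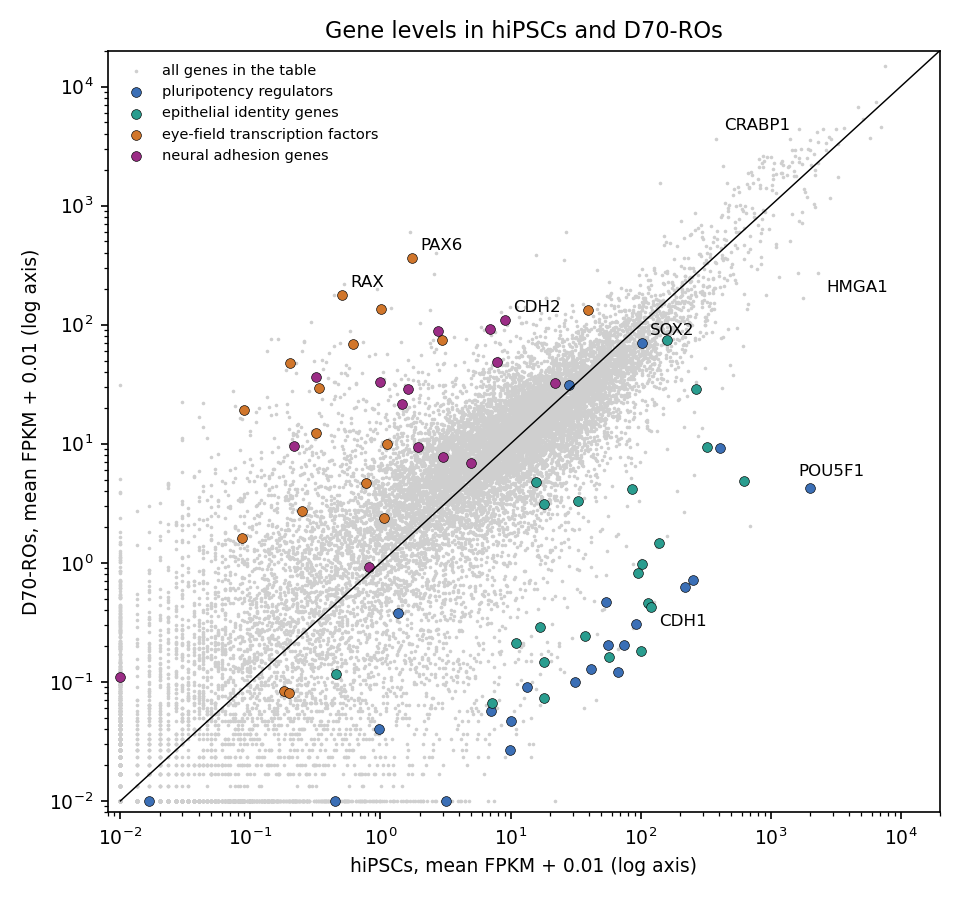
Mean FPKM of each gene in hiPSCs (x axis) and D70-ROs (y axis), each plus 0.01, on log axes. Each point is a gene, the line marks equal levels, and coloured points are the members of 4 gene lists. Pluripotency regulators and epithelial genes lie below the line with few exceptions such as SOX2 near it, while eye-field factors and neural adhesion genes with more than 1 FPKM in D70-ROs lie above it.

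Most of the network that defines the hiPSCs was nearly gone from the D70-ROs. Of 22 pluripotency regulators, 19 were tested, and 17 of these fell and none rose, against 21.1% and 22.5% of all genes. The other 2 tested, SOX2 among them, were not DEGs. Of the 22 genes, 17 were below 1 FPKM in every D70-RO library. Their median log2 fold change was −8.64, or −7.58 with genes of 3 or fewer counts set at the limit of their counting interval. Together these 22 genes had 3393 to 3666 FPKM in the hiPSC libraries and 115 to 121 in the D70-RO libraries, of which SOX2 made up 70.3 ± 3.55 FPKM. POU5F1 (chromosome 6, 31164337 to 31180731, minus strand, GRCh38 as in GENCODE 29) had 2006, 1924 and 2150 FPKM in the 3 hiPSC libraries and 5, 4.21 and 3.4 in the D70-ROs. It fell by 9.09 on the log2 scale (SE 0.19, edgeR quasi-likelihood test, Benjamini-Hochberg adjusted p = 1.44e-10), about 546-fold. The remaining level is uncertain, since POU5F1 has near-identical pseudogenes with which reads can be shared. NANOG had 40.44, 39.31 and 46.09 FPKM in hiPSCs and 0.12, 0.14 and 0.09 in D70-ROs, and fell by 9.29 (SE 0.25). Each of the D70-RO libraries thus held less NANOG than any hiPSC library by more than 100-fold. NANOGP8, a gene copy of NANOG that shares reads with it, was at 14.8 ± 0.843 and 0.02 ± 0.0346 FPKM, and how reads were divided between them is not known.

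Other members fell too, by amounts that differed. ZFP42, the stem cell marker REX1, went from 67.2 ± 3.08 to 0.11 ± 0.0608 FPKM and DPPA4 from 220.0 ± 8.44 to 0.613 ± 0.118. The zinc finger factors ZSCAN10 and SALL4 fell by 8.78 and 7.15. L1TD1, an RNA-binding protein of pluripotent cells, fell by 8.36. PRDM14, which represses differentiation genes, had 31.89, 33.6 and 27.86 FPKM in hiPSCs and 0.02, 0.23 and 0.02 in D70-ROs, where 8 counts remained over the 3 libraries. KLF4 was already at 1.35 ± 0.139 FPKM in hiPSCs and fell to 0.367 ± 0.179. HES3, a basic helix-loop-helix repressor of stem cells, is outside the list. It had 912 counts in hiPSCs and none in D70-ROs. It was thus at least 278-fold lower, with 3 counts over the group as the floor. Counting limits cover counting error only.

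SOX2, which pluripotent and neural progenitor cells both use, was an exception. It had 108.2, 92.09 and 104.6 FPKM in hiPSCs and 67.65, 69 and 74.37 in D70-ROs. The groups did not overlap, but the log2 fold change of −0.67 (SE 0.11) stayed short of the 2-fold limit. SOX3, a close relative of SOX2, fell by 2.02 (2.84 without D70-RO replicate 2, its highest library), from 18.8 ± 0.821 to 5.19 ± 4.12 FPKM. Elsewhere in the POU and SOX families, SOX4 and SOX11 of young neurons rose by 1.11 and 1.47, SOX13 fell by 6.06, and the median of the 18 members tested was −0.66, with 5 higher and 7 lower.

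NANOG is shown with its promoter because its sequence carries the joint site that OCT4 and SOX2 recognise. In the RefSeq promoter table (GRCh38.p14), the 250 bases before its start, at chr12:7789152-7789401 on the plus strand, hold 1 match to TTTGCAT followed after any base by ACAAT, which begins 120 bases before the start. Capitals mark the match.
NANOG: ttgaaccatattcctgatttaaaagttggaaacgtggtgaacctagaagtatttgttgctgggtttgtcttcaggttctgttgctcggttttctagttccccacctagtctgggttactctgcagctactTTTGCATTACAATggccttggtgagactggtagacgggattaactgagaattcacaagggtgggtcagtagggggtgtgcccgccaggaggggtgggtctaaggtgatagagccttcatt
Symbols of 10233 tested genes matched the table, which gives them 15173 windows, since a gene can have several starts. The joint site, searched on both strands, was in 3 of these windows (0.0198%), and in 4 of the 35116 windows of the whole table. The 3 belong to NANOG, to PIPOX, a peroxisomal oxidase that fell by 2.23, and to NRARP, a Notch pathway inhibitor that had 18.2 ± 1.1 FPKM in hiPSCs and 12.1 ± 0.311 in D70-ROs. The octamer ATTTGCAT, the POU factor site alone, was in 1.64% of windows of genes that fell, 1.32% of those that rose and 1.21% of all tested. A match describes the letters only and is not a measured binding site.

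Signals that keep human stem cells pluripotent fell with the network. Human pluripotent cells depend on Nodal/Activin and FGF signalling. Of 20 genes of these pathways 19 were tested, with 13 lower, 2 higher and a median of −3.15. NODAL itself went from 14.3 ± 2.66 to 0.233 ± 0.0306 FPKM. Its co-receptor TDGF1 (CRIPTO) went from 254 ± 31 to 0.703 ± 0.488, and its nuclear partner FOXH1 from 45.3 ± 1.86 to 0.06 ± 0.0721. The FGF receptors FGFR1 and FGFR4 fell by 3.15 and 6.02, from 193 ± 17.3 and 45.3 ± 2.92 FPKM. The FGF-induced genes DUSP6, SPRY4 and ETV4 fell by 3.43, 2.50 and 4.87. The ligands moved in opposite directions. FGF2 fell by 1.92 to 3.44 ± 0.723 FPKM. FGF8, a ligand made at the optic stalk and in the central retina when neurogenesis starts, had 1.52, 2.48 and 1.79 FPKM in hiPSCs and 12.91, 12.93 and 10.68 in D70-ROs, and FGF19, a ligand of early RPCs, rose by 1.19. Both ligand genes that rose had higher values in all 3 D70-RO libraries than in any hiPSC library. LEFTY2, a Nodal antagonist, was at 1.98 ± 0.391 and 0.797 ± 0.703 FPKM and missed the threshold (log2 fold change −1.52, edgeR quasi-likelihood test, Benjamini-Hochberg adjusted p = 0.0602), but passed under 4 alternatives, such as without D70-RO replicate 2 (−2.02).

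Genes of the LIN28 and HMGA group, which hold cells in an early developmental programme, were also lower. LIN28A, an RNA-binding protein that blocks let-7 miRNA maturation, had 703, 758 and 631 FPKM in hiPSCs and 1.84, 2.6 and 1.59 in D70-ROs, and fell by 8.62 (SE 0.22). Its paralog LIN28B, which early RPCs also express, fell by 4.03 to 1.34 ± 0.463 FPKM. HMGA1, a chromatin protein, lost more FPKM than any other DEG, from 2307 ± 174 to 271 ± 52.8, and HMGA2 went from 55.1 ± 3.96 to 6.86 ± 0.272. In total 8 of the 9 genes fell, with a median of −3.15. The mRNA-binding protein IGF2BP2 did not pass, at 43.4 ± 4.89 and 33.3 ± 1.77 FPKM.

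**Figure D2:**
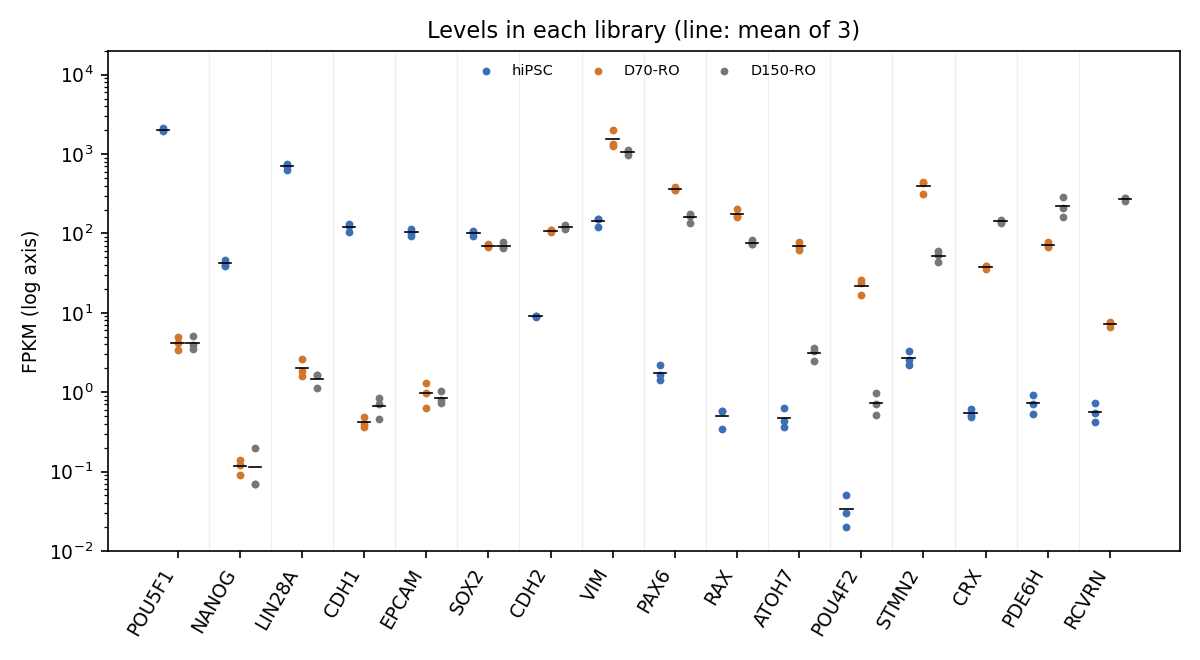
FPKM of 16 genes in each hiPSC, D70-RO and D150-RO library on a log axis, with a line at the mean of 3 libraries. POU5F1, NANOG, LIN28A, CDH1 and EPCAM are high only in hiPSCs, SOX2 stays within 2-fold between hiPSCs and D70-ROs, ATOH7 and POU4F2 are highest in D70-ROs, and CRX, PDE6H and RCVRN lie higher at day 150 than at day 70.

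Adhesion genes changed from an epithelial to a neural set. hiPSCs grow as a tight epithelium held by E-cadherin, whereas neuroepithelial cells use N-cadherin. All 21 epithelial genes tested, of 22 listed, fell, with a median of −6.96. CDH1 (E-cadherin) had 132.73, 123.99 and 103.76 FPKM in hiPSCs and 0.4, 0.49 and 0.36 in D70-ROs, and fell by 8.40 (SE 0.19). EPCAM fell by 6.96, the tight junction proteins CLDN6 and CLDN7 by 7.16 and 9.53, and the epithelial splicing factor ESRP1 by 8.83. The keratin pair KRT8 and KRT18 went from 267 ± 7.66 and 324 ± 14.4 FPKM to 29 ± 6.59 and 9.33 ± 1.86. SPINT2, a protease inhibitor, fell least, by 1.28, and kept 74.7 ± 7.71 FPKM. It was the exception once corrected for GC content and length (−0.91). RAB17, a GTPase of polarised epithelia, had 3 counts left in D70-ROs and was lower by 8.56 to 12.39 on the log2 scale (95% counting interval).

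Neural adhesion genes rose in 12 of 13 tested, with a median of 3.82. CDH2 (N-cadherin) had 8.93, 9.01 and 9.14 FPKM in hiPSCs and 105.42, 109.38 and 111.31 in D70-ROs, a rise of 3.47 (SE 0.11). The SD was 0.106 FPKM in hiPSCs and 3 in D70-ROs, far below the gap between them. NCAM1, the neural cell adhesion molecule, rose by 4.84 to 89.2 ± 5.91 FPKM, and CDH11 and CDH20 by 3.82 and 6.86. L1CAM, an axonal adhesion molecule, was at 21.8 ± 3.55 and 32.3 ± 6.88 FPKM and its libraries overlapped. In the wider families, 7 of 12 claudins tested fell and 3 rose, among them CLDN5 (by 3.99, to 9.06 ± 0.291 FPKM), and 4 of 5 keratins fell. EPHA1, an Eph receptor of epithelia, fell by 8.81, while EPHA5 and EPHA3 rose by 6.47 and 3.57.

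Some enzymes of DNA methylation were lower and TET2, of demethylation, was higher. DNMT3B, the de novo methyltransferase that marks pluripotent cells, went from 412 ± 26.2 to 9.22 ± 0.573 FPKM, and fell by 5.83 (SE 0.13). The maintenance enzyme DNMT1 fell by 1.84. The oxidase TET2 had 0.34, 0.25 and 0.26 FPKM in hiPSCs and 3.04, 2.32 and 3.2 in D70-ROs and rose by 3.13. TET1, its paralog of stem cells, missed the 2-fold limit (log2 fold change −0.66, or −1.30 and then a DEG once corrected for GC content and length). Of 9 genes tested 3 fell and 2 rose, against 21.1% and 22.5% of all genes. In the BAF chromatin remodelling complex, cells that become neurons exchange progenitor subunits such as PHF10 for neuronal ones such as ACTL6B and DPF3. ACTL6B and DPF3 rose by 3.79 and 5.36, to 11.2 ± 1.75 and 3.76 ± 0.341 FPKM, and SMARCD3 by 3.84 to 42 ± 8.04. The progenitor subunit PHF10 was not a DEG. It stood at 26.5 ± 1.86 and 33.9 ± 3.68 FPKM (log2 fold change 0.96, or 1.01 and then a DEG without D70-RO replicate 2, and 0.29 once corrected for GC content and length). In all, 4 of 16 genes tested rose and 1, SMARCC1 (by 1.11), fell, against 22.5% and 21.1% of all genes. The list as a whole thus rose at close to the share of all genes.

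Cell cycle genes were lower, and inhibitors of cyclin-dependent kinases higher, in D70-ROs. Of 27 cell cycle genes all were tested, 19 fell and 1 rose, with a median of −2.01. PLK1, a kinase of mitosis, had 127.42, 142.88 and 128.06 FPKM in hiPSCs and 11.75, 13.58 and 13.12 in D70-ROs and fell by 3.52. The mitotic genes CDC20 and CCNB1 fell by 3.20 and 2.58, and the replication licensing gene MCM5 by 2.45. MKI67, which encodes Ki67, fell less, by 1.34, and varied among D70-RO libraries (6.98, 4.42 and 10.43 FPKM). Cyclin E was split. CCNE1 fell by 3.59, while CCNE2 rose by 1.35 with overlapping libraries and was no DEG without D70-RO replicate 1 (0.72). Of the 13 cyclin D genes, inhibitors and pocket proteins tested, 8 rose and none fell. CDKN1A (p21) rose from 12.9 ± 0.924 to 142 ± 37.8 FPKM and CDKN1C (p57), which acts in RPCs leaving the cycle, from 9.15 ± 0.521 to 36.3 ± 5.73. CCND1, the main cyclin D of RPCs, rose by 1.28 to 102 ± 6.88 FPKM.

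Metabolic and ribosomal genes were among the most abundant that changed. LDHA, which turns pyruvate into lactate, had 1788, 1644 and 1931 FPKM in hiPSCs and 151.9, 179.21 and 176.58 in D70-ROs, and fell by 3.44 (SE 0.15). The glucose transporter SLC2A3 (GLUT3) fell by 3.89 and PGAM1 by 2.33. PFKM, the muscle-type phosphofructokinase, rose by 1.05. Of 23 glycolysis genes, 8 fell, 1 rose and 14 were not DEGs. ENO1 is called lower (−1.05) only narrowly, and was no DEG without D70-RO replicate 1 (−0.88) or replicate 3 (−0.96). GAPDH was at 7061 ± 229.9 and 4584 ± 1211 FPKM, short of 2-fold with all libraries (−0.77) and past it without D70-RO replicate 2 (−1.03), and at −0.19 once corrected for GC content and length. Ribosomal protein genes took 6.27% to 6.85% of the counts of hiPSC libraries and 10.5% to 11.3% of D70-RO libraries. Of 79 tested 23 rose, 2 fell and 54 were not DEGs, with a median of 0.66. Of all genes 22.5% rose and 21.1% fell. Reads of these genes can be shared with processed pseudogenes. RPS3A and RPL7 rose by 1.29 and 1.47, whereas the 2 that fell were variants of other ribosomal proteins, RPL39L (by 3.09) and RPL22L1 (by 1.98), and RPL39 itself rose by 1.62. Mitochondrial ribosomal protein genes did not move with them. Of 78 tested 11 fell, none rose and 67 were not DEGs, so falls were no more common than the 21.1% of all genes.

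**Figure D3:**
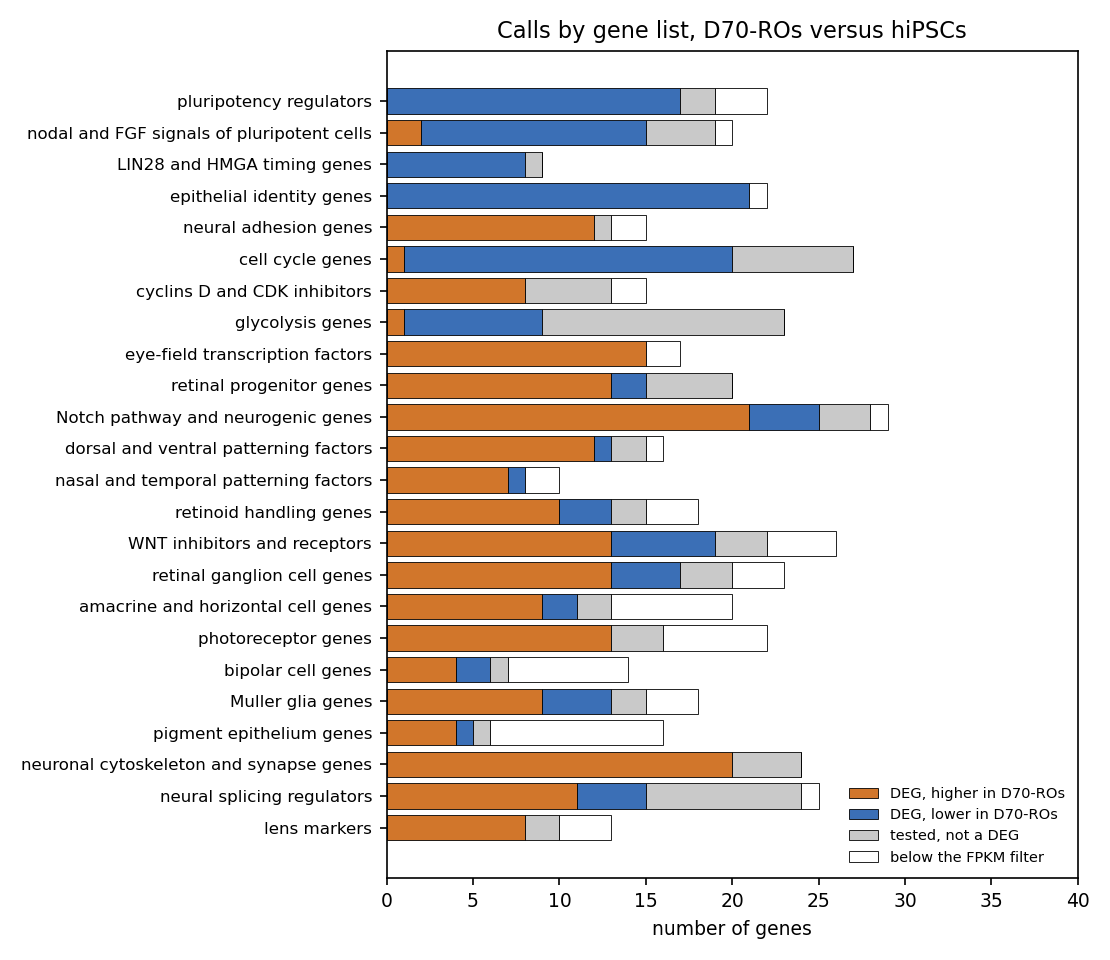
Number of genes in each list that were DEGs and higher (orange) or lower (blue) in D70-ROs, tested but not DEGs (grey) or below the FPKM filter (white). Lists of pluripotent cells at the top are mostly blue, with 17 pluripotency and 21 epithelial genes lower. The eye-field and retinal progenitor lists are mostly orange, with 15 eye-field genes higher. In the bipolar cell and pigment epithelium lists the white part is the largest, with 7 and 10 genes.

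Eye-field genes were high in every D70-RO library. All 15 eye-field factors tested, of 17 listed, rose, with a median of 5.14. Their summed level went from 44.4 to 55.7 FPKM in hiPSC libraries, most of it OTX2, to 1028 to 1143 in D70-RO libraries. PAX6 (chromosome 11, 31784779 to 31818062, minus strand) had 1.64, 1.42 and 2.18 FPKM in hiPSCs and 348.76, 356.97 and 379.68 in D70-ROs, a rise of 7.54 (SE 0.17, edgeR quasi-likelihood test, Benjamini-Hochberg adjusted p = 1.68e-10). RAX, the earliest factor of the eye field, had 0.34, 0.58 and 0.58 FPKM and then 167.75, 202.02 and 159.31, a rise of 8.11 (SE 0.22). No library of hiPSCs came near the D70-ROs for either gene. SIX6 and SIX3 rose by 6.96 and 4.53, LHX2 by 7.18, MEIS1 by 7.73 and NR2E1 (TLX), which keeps progenitors dividing, by 7.94. OTX2 differed in that it was already at 39.4 ± 5.66 FPKM in hiPSCs, and it rose by 1.79 to 132 ± 4.77. EYA1 was the weakest member (1.10), and was no DEG without D70-RO replicate 2 (0.85). The other 2 listed factors stayed below the filter.

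RPC genes rose in 13 of 20, with 2 lower and a median of 1.48. The Notch effector HES5 rose by 6.72, the nuclear receptor RORB, which acts in retinal development, by 5.24 and the glial and progenitor factor SOX9 by 2.71. Several members were already abundant in hiPSCs and rose less. VIM (vimentin) had 154.1, 120.32 and 151.94 FPKM in hiPSCs and 1333, 2027 and 1245 in D70-ROs, and SFRP2 went from 277 ± 19.3 to 647 ± 44.3. NES (nestin), a filament gene of neural progenitors, was not a DEG. It was at 58 ± 10.8 FPKM in hiPSCs and 34.4 ± 4.27 in D70-ROs (log2 fold change −0.89, and past 2-fold at −1.04 without hiPSC replicate 3). The 2 members that fell, LIN28B and SOX3, are described above.

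Most genes listed for the Notch pathway and neurogenesis rose, while some pathway members fell. In the retina, Notch holds RPCs in the cycle, and cells that escape it switch on proneural factors in turn. Of 28 genes tested 21 rose and 4 fell, with a median of 3.10. ATOH7, the proneural factor of ganglion cells, had 0.64, 0.36 and 0.43 FPKM in hiPSCs and 67.21, 78.88 and 62.56 in D70-ROs, a rise of 7.04 (SE 0.22). NEUROD1 rose by 7.10, to 65.7 ± 6.53 FPKM, and INSM1, a zinc finger factor of newborn neurons, by 5.95. The ligand DLL4, found on early newborn retinal neurons, rose by 7.41 to 7.68 ± 0.571 FPKM, DLL3 by 2.39 and DLL1 by 1.52. NEUROG2 had 1 count in hiPSCs and 332 in D70-ROs, and was higher by 6.02 to 13.81 on the log2 scale (95% counting interval). The 4 genes that fell were NOTCH3, JAG1, LFNG and HEY2. LFNG, which modifies the receptors, fell by 1.17 and was no DEG once corrected for GC content and length (−0.63). JAG1, a Notch ligand, fell by 2.48 and HEY2, a target gene, by 4.06.

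Genes that map the retina along its axes were expressed, with markers of both ends of each axis. The dorsal factors TBX2 and TBX5 and the ventral factors VAX2 and PAX2 were all higher. TBX2 had 0.12, 0.09 and 0.19 FPKM in hiPSCs and 78.28, 73.17 and 75.16 in D70-ROs, a rise of 8.96 (SE 0.19). VAX2 had 2 counts in hiPSCs and 939 in D70-ROs, where it stood at 16.8 ± 2.5 FPKM. ALDH1A1, the dorsal retinoic acid synthase, had 43.29, 51.02 and 75.45 FPKM in D70-ROs, and its ventral counterpart ALDH1A3 had 28.95, 60.94 and 30.61, from 0.89 ± 0.235 and 1.04 ± 0.102 in hiPSCs. On the other axis the nasal factor HMX1 reached 76.5 ± 13.3 FPKM, and the temporal factor FOXD1 only 1.61 ± 0.395. Both rose, by 8.81 and 1.68. HMX2, a relative of HMX1 used in the ear and hypothalamus, went the other way. It had 309 counts in hiPSCs and none in D70-ROs, at least 94.2-fold lower. The homeobox gene VENTX had 974 counts in hiPSCs and 3 in D70-ROs. In all 12 of 15 dorsal and ventral genes and 7 of 8 nasal and temporal genes tested rose.

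Retinoid genes included the gene with the largest gain in FPKM of all DEGs. CRABP1, the cellular retinoic acid binding protein of early retinal neurons, had 394.18, 354.72 and 389.07 FPKM in hiPSCs and 3624, 3941 and 3361 in D70-ROs, a rise of 3.13 (SE 0.12). RBP4 rose by 7.27 and the receptor RXRG, which early cones use, by 7.24. Receptors went opposite ways, as RARB rose by 5.45 (6.17 without hiPSC replicate 3) and RARG fell by 3.49. CRABP2 also fell, by 1.17, but was no DEG once corrected for GC content and length (−0.66). Of 15 genes tested 10 rose and 3 fell, with a median of 2.86.

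WNT inhibitors and receptors changed in both directions, with 13 of 22 tested higher and 6 lower. DKK3, a secreted protein of RPCs and Müller glia, rose from 15.6 ± 1.49 to 384 ± 12.3 FPKM. DKK1, an inhibitor that favours front and retinal fates, had 0.25, 0.18 and 0.16 FPKM in hiPSCs and 53.93, 37.95 and 49.78 in D70-ROs and rose by 7.74. SFRP1 did the reverse, from 229 ± 18.3 to 25.1 ± 1.68 FPKM. The receptor FZD7 of stem cells fell by 3.31 and LGR5 rose by 6.48. AXIN2, a general target of WNT signalling, fell by 1.51, while LEF1, a transcription factor of the pathway, rose by 4.08.

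Genes of ganglion cells, the earliest retinal neurons, were prominent. POU4F2 (BRN3B) had 0.02, 0.03 and 0.05 FPKM in hiPSCs and 23.58, 16.56 and 26.03 in D70-ROs, a rise of 9.19 (SE 0.31). ISL1 and EBF3, which act with it, rose by 8.05 and 7.18. STMN2, a microtubule regulator of growing axons, had 3.28, 2.19 and 2.56 FPKM and then 438.9, 313.27 and 437.76, and GAP43 rose by 3.78. In all these genes D70-RO replicate 2 was the lowest of the 3 D70-RO libraries and yet above every hiPSC library. Not all markers of ganglion cells followed. RBPMS and THY1, used to label mature ganglion cells, were high in hiPSCs (160.5 ± 5.39 and 275 ± 29.7 FPKM) and fell by 4.06 and 4.69. The neurofilament genes NEFL and NEFM stood at 19.6 ± 2.52 and 16.5 ± 1.29 FPKM in hiPSCs and were not DEGs. Of 20 genes tested 13 rose and 4 fell.

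Early factors of amacrine and horizontal cells were present at low levels. FOXN4, which opens both fates, rose from 0.187 ± 0.0902 to 16.9 ± 1.83 FPKM, and ONECUT2 rose by 5.37 to 3.31 ± 0.917. PTF1A and BARHL2 had 2 counts each in hiPSCs and 221 and 567 in D70-ROs. TFAP2A rose by 4.07 to 2.89 ± 0.462 FPKM. GAD1, which makes the transmitter GABA, was called higher (1.26), but its libraries overlapped (1.46, 1.11 and 0.95 FPKM against 2.08, 1.98 and 1.2). The calcium-binding protein CALB1 of mature horizontal cells fell by 1.88, and 7 of the 20 genes did not pass the filter. Among those tested 9 rose and 2 fell.

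Photoreceptor genes that rose included several used by cones. CRX, the homeobox factor of photoreceptor precursors, had 0.49, 0.51 and 0.62 FPKM in hiPSCs and 35.29, 38.75 and 38.48 in D70-ROs, a rise of 5.88 (SE 0.16). PDE6H, the inhibitory subunit of the cone phosphodiesterase, had 0.53, 0.92 and 0.72 FPKM and then 77.31, 68.18 and 71.02, a rise of 6.49 (SE 0.21). Both groups were tight and far apart. The thyroid hormone receptor THRB of cones rose by 5.40, the cone transducin GNAT2 to 12.7 ± 2.76 FPKM from 0.223 ± 0.165, and the cone arrestin ARR3 to 5.35 ± 1.17. NRL, the factor that sets rod fate, was at 1.35 ± 0.312 and 3.05 ± 0.89 FPKM and was not a DEG (log2 fold change 0.89, or 1.11 and 1.03 and then a DEG without hiPSC replicate 2 or D70-RO replicate 3). It was also a DEG once corrected for GC content and length (1.47) and with limma on log2(FPKM + 0.1) (1.10). In all, 13 of 16 photoreceptor genes tested rose and none fell, with 6 of 22 below the filter. At day 150 the levels were 142 ± 7.04 FPKM for CRX, 219 ± 64.3 for PDE6H and 211 ± 29.3 for NRL.

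Promoters of CRX and PDE6H are shown because both genes rose and homeobox factors of photoreceptors read short sites with a TAAT core. The windows are the 250 bases before the RefSeq start on the plus strand (GRCh38.p14), at chr19:47821687-47821936 for CRX and chr12:14972792-14973041 for PDE6H. Capitals mark TAATCC, the OTX2 and CRX site, on either strand in CRX and TAATTA, a general homeobox site, in PDE6H.
CRX: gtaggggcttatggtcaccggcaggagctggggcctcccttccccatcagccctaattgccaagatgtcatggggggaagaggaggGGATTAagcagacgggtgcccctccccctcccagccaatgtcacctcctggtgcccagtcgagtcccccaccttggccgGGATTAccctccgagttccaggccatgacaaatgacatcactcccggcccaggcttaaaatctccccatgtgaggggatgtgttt
PDE6H: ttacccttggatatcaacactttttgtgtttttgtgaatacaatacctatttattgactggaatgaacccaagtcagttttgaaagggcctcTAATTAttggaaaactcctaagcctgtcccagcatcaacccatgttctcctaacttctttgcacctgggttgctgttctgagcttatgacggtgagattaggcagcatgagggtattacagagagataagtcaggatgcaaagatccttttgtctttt
CRX has 2 matches, which begin 164 and 85 bases before the start, and PDE6H has 1, which begins 158 bases before it. TAATCC was in 4.87% of windows of genes that rose, 2.82% of those that fell and 4% of all tested. TAATTA was in 2.93%, 2.1% and 2.15%. CAGATG, an E-box that proneural factors use, was in 10.1%, 8.96% and 8.51%, and TATAAA, which is not tied to any cell type, was in 7.44%, 5.15% and 5.63%. All 4 motifs, TATAAA among them, were thus more frequent before genes that rose than before tested genes as a whole. All windows of the table held each still more often, at 5.62%, 4.35%, 12.2% and 10.7%. Genes that rose also had transcripts of lower GC content (below).

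Genes of late-born cells were partly on. Among bipolar cell genes VSX1 and CABP5 rose by 6.93 and 4.35, to 5.37 ± 1.46 and 12.8 ± 1.99 FPKM, while 7 of the 14 genes did not pass the filter. NETO1 fell from 4.54 ± 0.415 to 0.113 ± 0.0751. Of Müller glia genes 9 of 15 tested rose and 4 fell, with a median of 1.17. SPP1, an osteopontin gene, rose by 4.31 and CLU (clusterin) by 1.17, though CLU was no DEG without D70-RO replicate 2 (0.87). APOE fell by 2.69, from 551 ± 34.3 to 94.5 ± 25.4 FPKM. GLUL and SLC1A3, which clear glutamate in mature Müller glia, were at 77.1 ± 2.55 and 6.64 ± 0.488 FPKM in hiPSCs and 109.8 ± 18 and 9.05 ± 1.67 in D70-ROs and were not DEGs, and RLBP1 stayed below the filter at 1.16 ± 0.514. Of 16 pigment epithelium genes 10 were below the filter. Of the 6 tested 4 rose and 1 fell, with a median of 1.55. DCT, an enzyme of melanin synthesis, rose by 7.31 to 15.3 ± 1.09 FPKM. PMEL, the melanosome matrix protein, was at 127 ± 9.2 in hiPSCs and 102 ± 25.2 in D70-ROs and was not a DEG. LRAT fell from 6.68 ± 0.786 to 0.0133 ± 0.0231 FPKM.

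Neuronal genes beyond the retina-specific ones rose in 20 of 24, and none fell (median 3.40). TUBA1A, the tubulin of growing neurons, had 430.2, 403.47 and 446.18 FPKM in hiPSCs and 2110, 2154 and 2199 in D70-ROs. MAP2 rose by 4.08, STMN4 by 7.99, the doublecortin gene DCX by 4.83 and the synaptic genes SNAP25 and SYT1 by 4.85 and 2.64. ELAVL4 had 2 counts in hiPSCs and 671 in D70-ROs. Among splicing regulators, PTBP1 and its neural paralog went opposite ways. PTBP1, which represses neural exons, went from 376 ± 26.5 to 105 ± 7.33 FPKM and fell by 1.86, and PTBP2 from 9.94 ± 2.49 to 31.4 ± 5.01 (a rise of 1.53, or 0.38 and no DEG once corrected for GC content and length). SRRM4 and CELF3 rose by 3.57 and 6.07 and MBNL2 by 4.72. Of 24 splicing regulators tested 11 rose, 4 fell and 9 were not DEGs.

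The largest rises among genes with at least 10 FPKM in the higher group and no overlap included genes outside the lists. PTH2, a neuropeptide gene, had no count in hiPSCs and 27.17, 33.98 and 31.85 FPKM in D70-ROs, at least 250.3-fold higher. TRH, the precursor of thyrotropin-releasing hormone, had 0.49, 0.48 and 0.58 FPKM in hiPSCs and 179.74, 299.86 and 175.16 in D70-ROs, a rise of 8.58. DAPL1, a gene with high levels in the eye, had 1.14, 1.76 and 2.14 and then 686.44, 554.74 and 556.32, a rise of 8.29. MAB21L2, needed for eye formation, rose by 8.80 and CRB1, the apical polarity gene of the retina, by 8.36. The others included CRYBA1, POU4F2, ATP6V1B1, TBX2, HMX1, VAX2, ST6GALNAC2, CBLN2 and FAM69C. The corresponding falls were led by HES3, RAB17, FOXH1, CLDN7, ZFP42, SYNE4, NANOG and POU5F1, followed among others by NANOGP8, CYP2S1, TDGF1, PRDM14, ESRP1 and FOXA3. CYP2S1, a cytochrome P450 of epithelia, had 123.92, 141.42 and 116.77 FPKM in hiPSCs and 0.65, 0.5 and 0.22 in D70-ROs. Among the losses in absolute level, the cytoskeletal genes ACTB, PFN1 and TUBA1B fell by 1.43, 2.66 and 1.31, of which ACTB (−0.99) and TUBA1B (−0.94) were no DEGs once corrected for GC content and length.

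Gene families showed further patterns. None of the 39 HOX cluster genes passed the filter, and their summed level was at most 0.49 FPKM in any of the 6 libraries. Zinc finger genes with a ZNF number rose in 133 of 439 tested and fell in 25, with a median of 0.59, or 0.30 once corrected for GC content and length. Histone genes, many of which lack a poly(A) tail, rose in 14 of 20 tested, such as HIST2H2BE (by 3.48). Intraflagellar transport genes, which build cilia, rose in 7 of 14 and fell in none, with a median of 1.10 (0.73 so corrected), and IFT88 went from 1.46 ± 0.372 to 6.15 ± 1.71 FPKM. Of 42 potassium channel genes tested 19 rose, among them KCNV2 of photoreceptors (by 7.71), and 13 fell. SLC17A7, the vesicular glutamate transporter, rose by 4.81 to 50.5 ± 6.52 FPKM.

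Markers of tissues other than retina were checked for the whole of each list. In the D70-ROs 16 of 19 telencephalon and other brain markers did not pass the filter, 2 fell and 1 rose. The 1 that rose was the only member at 1 FPKM or more in any D70-RO library. The sum of the list was 6.87 to 9.69 FPKM in hiPSC libraries and 12.4 to 14.4 in D70-RO libraries. Of 19 markers of other germ layers 18 did not pass, and the sum of the list was 3.51 to 5.19 FPKM and then 2.34 to 10.1. The 1 tested had a log2 fold change of −3.79, whereas the 1 tested under a filter of mean FPKM of at least 1 had 4.32. In each of these 2 lists 18 of the 19 markers were below 1 FPKM in all D70-RO libraries. Of 15 mesenchymal and matrix markers 9 were tested, with 4 higher and 4 lower, and their sum went from 172 to 211 FPKM in hiPSC libraries to 58.7 to 68.8 in D70-ROs. ACTA2 rose by 2.55 to 22.7 ± 6.07 FPKM, while COL1A1 and COL1A2 fell by 3.92 and 5.10. Of 10 neural crest and Schwann markers 6 were tested, with 1, TFAP2A, higher and 3 lower. They summed to 61.2 to 64.7 FPKM and then 42.6 to 78.5. SOX10 stood at 0.15 ± 0.05 in D70-ROs, while NGFR, not a DEG, had 14.54, 29.52 and 7.75 FPKM there. Microglia and endothelium markers summed to 40.8 to 44.8 and then 17.5 to 20.5, and 10 of 15 were below the filter. Of the 5 tested 3 fell and 1, CLDN5, rose. The optic stalk and astrocyte list summed to 7.65 to 8.53 FPKM in hiPSCs and 12.4 to 43 in D70-ROs, of which PAX2 made up 17.3 ± 11.8 FPKM, while GFAP stood at 0.603 ± 0.407. Stress and hypoxia genes rose in 5 of 19 tested and fell in 3, against 22.5% and 21.1% of all genes. The other 11 were not DEGs, and the median was −0.02. Among those that rose were DDIT3 (by 4.06) and NDRG1 (by 3.93).

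Most lens genes tested rose. Of 13 listed, 10 were tested, 8 rose and none fell, with a median of 4.44, or 4.36 with counting limits. Their sum was 11.6 to 14.2 FPKM in hiPSC libraries and 54.8 to 91.3 in D70-RO libraries. CRYBA1 had 1 count in hiPSCs and 26.61, 11.7 and 29.28 FPKM in D70-ROs. CRYGC and LIM2, the latter a membrane protein of lens fibres, had no count in hiPSCs and were at least 59.7-fold and 67.4-fold higher. The lens factor FOXE3 and the fibre channel MIP did not pass the filter. At day 150 CRYBA1 was at 0.977 ± 0.794 FPKM. Whether the signal comes from lens cells or from retinal cells that express crystallins was not tested.

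More genes had a wide range among the D70-RO libraries than among the hiPSC libraries. A chi-square statistic of the counts was highest for hiPSC replicates 2 and 3 (32.2 per degree of freedom, against 6.94 to 28.4 for D70-RO pairs). This statistic grows with depth, and D70-RO replicate 2 was shallower, so it does not rank the pairs of the groups. Among genes tested with a mean of at least 5 FPKM in the group, 37 of 9202 had a 3-fold or wider range over the D70-ROs, and 5 of 8509 over the hiPSCs. For 17 of the 37 the range was under 3-fold in CPM (counts scaled to library size by TMM), so their FPKM differed more than their counts did. TENM4, for example, had 36.96, 2.62 and 4.95 FPKM and 39.4, 36.4 and 54.1 CPM. Its rise of 1.11, from counts, was no DEG without hiPSC replicate 3 (0.98) or D70-RO replicate 3 (0.91). For the other 20 the counts differed too, and in 16 of them replicate 2 was highest. PAX2, the optic stalk and ventral factor, had 16.9, 29.26 and 5.67 FPKM, and rose by 6.84 against hiPSCs (6.11 without replicate 2). WIF1, a WNT inhibitor, had 5.05, 20.86 and 1.24 FPKM, which overlapped the hiPSCs, and its rise of 2.59 was 1.12 without replicate 2. The imprinted gene DLK1 had 6.12, 26.75 and 1.97 FPKM, CDR1 had 6.94, 161.48 and 11.86, and NGFR had 14.54, 29.52 and 7.75. In PAX2, WIF1, DLK1, NGFR, THY1 and SOX3 alike the order was replicate 2, then 1, then 3. In POU4F2, ISL1, EBF3, STMN2 and GAP43, by contrast, replicate 2 was lowest. Replicate 2 was also the shallowest library, and its part in these differences was not tested.

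**Figure D4:**
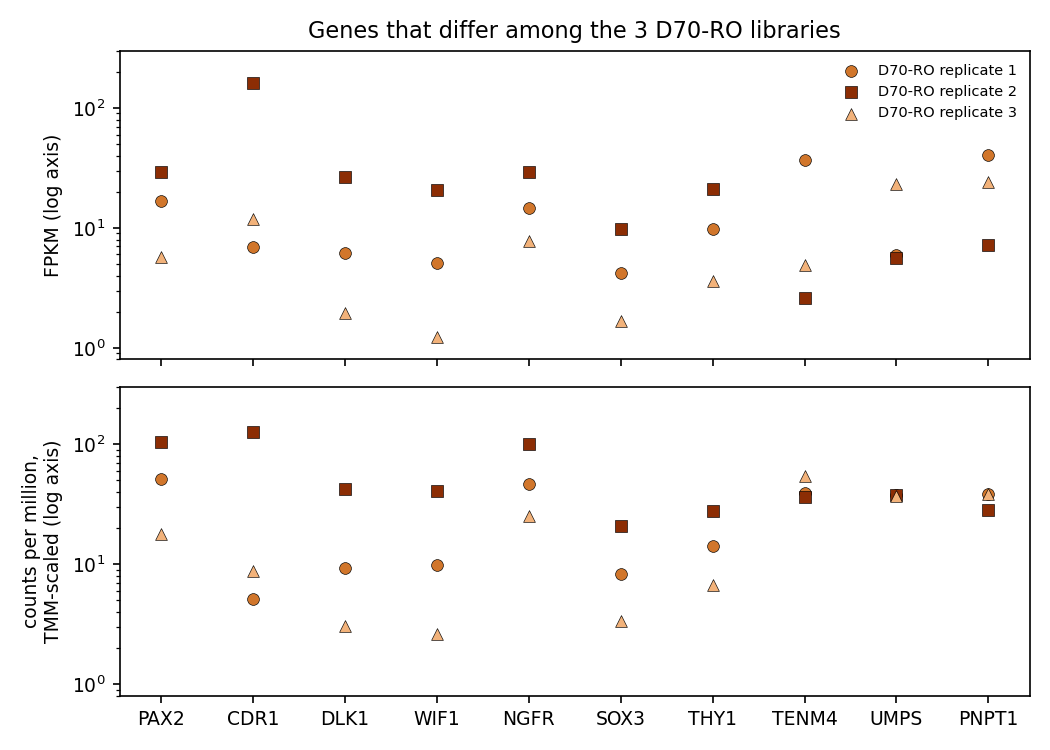
FPKM (top) and TMM-scaled CPM (bottom) of 10 genes in the 3 D70-RO libraries, on log axes, with a symbol for each replicate. PAX2, CDR1, DLK1, WIF1, NGFR, SOX3 and THY1 are highest in replicate 2 on both scales, whereas TENM4, UMPS and PNPT1 differ in FPKM but lie close together in CPM.

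The direction of change also followed the base composition and length of transcripts. With genes split into 4 classes of equal size, 32% of the class with the lowest GC content rose and 8.43% fell, with a median of 0.50, and in the class with the highest GC content 17.3% rose and 32% fell, with a median of −0.43. The class of shortest transcripts had a median of −0.17 and the longest 0.29. A loess fit on both properties was made to these same fold changes and subtracted from the counts. The class medians then lay between −0.08 and 0.06, which follows from the fit itself. After this correction 81.2% of the DEGs were still DEGs in the same direction. The trend follows the groups, so a difference in library preparation and a difference in the cells cannot be told apart.

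**Figure D5:**
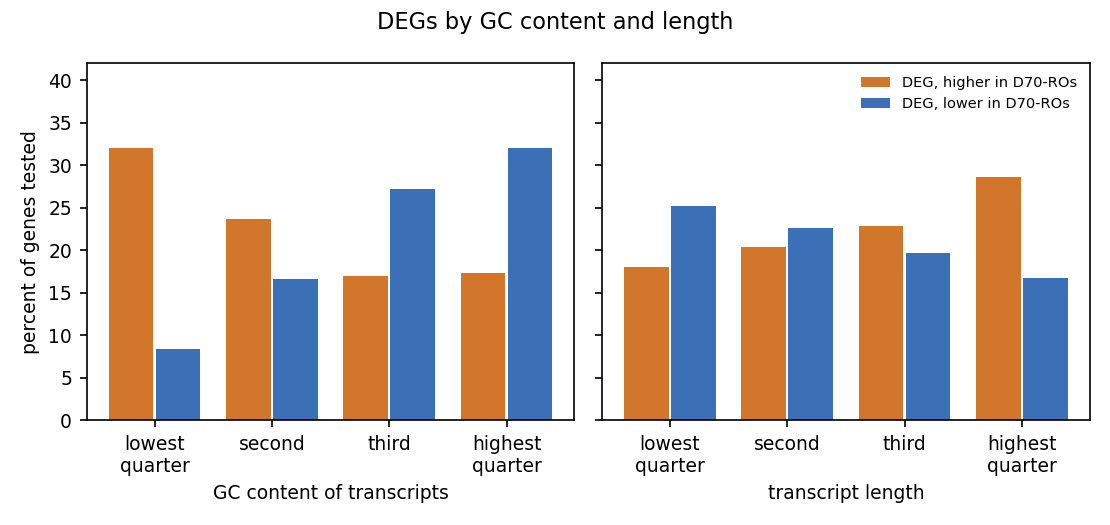
Percent of tested genes that were DEGs and higher (orange) or lower (blue) in D70-ROs, in 4 classes of transcript GC content (left) and of transcript length (right). The share of rises falls from 32% to 17.3% and the share of falls climbs from 8.43% to 32% between the lowest and highest GC class.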

How the data were processed

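Poly(A) RNA-seq values of 3 hiPSC and 3 D70-RO libraries were used, grouped by sample title. For each gene the authors deposited expected counts and FPKM from RSEM, and the submitters' processing notes also name HISAT2, StringTie and DESeq2. Versions and the genome build are not given in the sources used here. The deposited expected counts were rounded, since 9.3% were not whole. Genes with at least 1 FPKM in at least 3 libraries were kept, scaled by TMM and tested with edgeR 4.0.16 (quasi-likelihood test, two-sided, Benjamini-Hochberg adjustment, R 4.3.3) with limits of 0.05 on the adjusted p and 2 on the fold. The test was run on simulated data for this comparison, with 12954 genes, of which far fewer were changed than were called in the data. Calls there used the adjusted p alone, without the 2-fold limit. Of the changes set, 99% at 4-fold and 81% at 2-fold were recovered, and 2.17% of calls were false. These shares do not describe the full rule used here. For a group without a count, folds were bounded with 3 counts over the group. For 1 to 3 counts a 95% counting interval is given. Gene positions, transcript length and GC content came from GENCODE 29 and promoter windows from RefSeq GRCh38.p14. DESeq2 1.42.0 and limma 3.58.1 were alternatives. Columns holding the authors' own comparisons and 24 columns of per-sample values in other tables were not used.

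The members and gene lists were chosen with earlier results of these data known. Genes named are those of the lists, the 15 largest rises and 15 largest falls among DEGs that did not overlap and reached 10 FPKM, the 10 largest gains and 10 largest losses in FPKM, and for each family up to 2 members per direction. TENM4, PNPT1, CDR1, DLK1, NRARP, PIPOX, NGFR and UMPS were chosen after their values were seen. Some genes chosen by these rules are not reported here.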

Additional observations from a re-analysis of the deposited data

How the results depend on the processing

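The count of DEGs stayed within 1.5 times the reported 5639 under each of the 17 alternatives run. It was lowest, at 4337, in the test against a 2-fold change, which kept 76.9% of the DEGs. That test gave no call for 14 of the genes called and named. These were CCNE2, CLU, CRABP2, ENO1, EYA1, FGF19, GAD1, LFNG, MKI67, PFKM, SFRP2, SMARCC1, SOX4 and TENM4. DESeq2 gave 2849 higher and 2789 lower genes, limma on log2(FPKM + 1) 2529 and 2170, upper-quartile scaling 3157 and 2501, and no filter 3686 and 3604. Upper-quartile scaling moved the median of all genes to 0.12. Leaving out 1 library at a time gave 5516 to 5806 DEGs. By replicate number, the deviations of the 2 groups correlated at 0.0233, 0.35 and 0.137, where 0.1 was the limit set for pairing. Replicate 1 fell short of the limit and replicates 2 and 3 passed it, so whether the numbers pair the samples is not settled. With a replicate block 5662 genes were DEGs, 5615 of them shared with the fit without it. Genes without a call that changed sign were PNPT1 (from −0.35 to 0.49 and 0.50 with limma), UMPS (from −0.67 to 0.16 and 0.15 with limma) and DLK1 (−0.22 to 1.80 when 1 library was left out, the lowest without D70-RO replicate 2 and the highest without replicate 3). The cause was not tested. LEFTY2 passed with no filter (−1.52), with all 9 libraries in 1 fit (−1.53) and with the replicate block (−1.74). Among genes called and named, limma on log2(FPKM + 1) gave no call for 11: CCNE2 (0.50), CRABP2 (−0.92), ENO1 (−0.96), EYA1 (0.70), FOXD1 (0.83), GAD1 (0.33), KLF4 (−0.79), LFNG (−0.97), SMARCC1 (−0.96), TENM4 (1.06) and WIF1 (1.37).

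Lists of few low genes rest on few counts, and D70-RO replicate 2 had the fewest counts of the 6 libraries.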
